A study of Mus musculus with 12 samples.

Results

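WNT ligands and genes that receive, transmit or report their signal were examined in the lungs of newborn mice exposed to high oxygen. The 10 genes were Wnt2, Wnt5a, Wnt7b and Wnt11 (ligands), Lgr5 and Lgr6 (receptors), Ctnnb1 and Lef1 (transcriptional effectors), and Axin2 and Nkd1 (feedback targets). They were taken by symbol from a table of 23478 genes, all 10 were found, and all 10 were among the 15761 genes with enough counts to be tested.

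RNA-seq was done on whole lungs of C57/Bl6 pups from which the lavage fluid had been removed, in 4 groups of 3 libraries. Every pup was injected on day 0, either with aurothioglucose (ATG, 25 mg/kg, a gold-containing inhibitor of thioredoxin reductase) or with saline (SAL), and then spent 72 h in more than 95% oxygen (hyperoxia, HYP) or was kept in room air (RA). The groups were ATG/HYP, SAL/HYP, ATG/RA and SAL/RA; no uninjected pups were analysed here, so all groups share an injection. The labels do not say whether the libraries of a group came from separate litters, and the p-values measure only the spread between these samples.

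WNT proteins are secreted lipid-modified ligands that bind Frizzled receptors together with the LRP5/6 co-receptors. In the canonical branch this stabilises beta-catenin, which enters the nucleus and acts with TCF/LEF factors on target genes, several of which feed back to restrain the pathway. In the developing lung, ligands from the mesenchyme and the epithelium act on each other's compartment during branching and the forming of alveoli, and Wnt5a acts largely through receptors outside the beta-catenin branch.

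Total counts ran from 14331749 to 20486735 per library. Markers of alveolar type 2 cells (7 genes) summed to 13247 to 15319 CPM (a library's counts scaled to a common total, with TMM) in ATG/HYP, 13074 to 14180 CPM in SAL/HYP, 13142 to 14858 CPM in ATG/RA and 11046 to 11739 CPM in SAL/RA. The 3 SAL/RA libraries lay below the other 9. In HYP against RA in SAL pups 4 of the 7 genes were called higher (4.7% of all genes). In ATG pups 0 were called higher and 1 lower, and in the average over injections 1 higher and 1 lower. The part of the low SAL/RA level in the SAL contrasts was not tested. Markers of neighbouring tissues were uneven. The cardiomyocyte list (8 genes, none at 0 in all libraries) summed to 6970 CPM in ATG/HYP 2 and 3150 CPM in SAL/HYP 2, against 425 to 978 CPM in the other libraries. The thymocyte list (8 genes) summed to 83.5 CPM in SAL/HYP 2 and 32.1 CPM in SAL/HYP 3, against 3.03 to 17.5 CPM elsewhere, and the skeletal muscle list reached 359 CPM in SAL/HYP 1. By Xist and Y-linked genes, ATG/HYP held 1 female and 2 males, SAL/HYP 2 females and 1 male, ATG/RA 2 females and 1 male, and SAL/RA 3 males.

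Per kilobase of exon, which allows levels of different genes to be compared, Ctnnb1 stood far above the other members in all 4 groups, with 205 ± 4.17 (ATG/HYP), 193 ± 6.41 (SAL/HYP), 191 ± 14.5 (ATG/RA) and 187 ± 8.04 (SAL/RA) CPM per kb (mean ± SD, n = 3 each). In SAL/RA lungs the next levels were 20.7 ± 1.15 CPM per kb for Wnt5a, 19.3 ± 0.703 for Nkd1, 17.8 ± 1.12 for Wnt2 and 12.8 ± 1.74 for Axin2. The ranges of mean ± SD of Wnt5a and Nkd1, and of Nkd1 and Wnt2, overlapped only at their edges. Lower levels per kb in SAL/RA were 3.71 ± 0.289 for Lgr6, 2.41 ± 0.244 for Wnt7b, 2.36 ± 0.116 for Wnt11 and 2.18 ± 0.486 for Lef1, and the last 3 did not differ beyond their spread. Lgr5 was lowest, at 0.214 ± 0.108 CPM per kb. The exon lengths are those of GENCODE M21, since the annotation behind the counts is not given in the sources used here.

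For Wnt11 and Lef1, which fell in hyperoxia, the stretches shown are those that held TCF/LEF letters. Axin2 is shown as the standard readout gene of beta-catenin. Wnt2, which also fell, had an entry without such letters and is not shown. Each stretch is the 250 bases before a RefSeq start, 5′ to 3′ (RefSeq, GRCm38.p6), in lower case with any TCF/LEF letters in capitals. The letters searched, on both strands, were 4 variants of 1 motif, which are CTTTGAT or CTTTGAA or CTTTGTT or CTTTGTA.
Wnt11, chr7:98834862-98835111, plus strand: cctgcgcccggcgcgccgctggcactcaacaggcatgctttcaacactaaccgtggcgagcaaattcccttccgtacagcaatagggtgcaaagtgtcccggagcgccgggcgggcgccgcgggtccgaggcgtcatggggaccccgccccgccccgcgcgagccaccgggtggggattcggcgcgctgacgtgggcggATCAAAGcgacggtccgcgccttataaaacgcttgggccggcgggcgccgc
Lef1, chr3:131156044-131156293, plus strand: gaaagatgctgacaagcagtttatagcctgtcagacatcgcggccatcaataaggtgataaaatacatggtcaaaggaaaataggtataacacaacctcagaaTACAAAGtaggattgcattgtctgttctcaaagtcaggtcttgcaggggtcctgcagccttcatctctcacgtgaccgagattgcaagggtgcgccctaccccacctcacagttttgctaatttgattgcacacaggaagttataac
Axin2, chr11:108920099-108920348, plus strand: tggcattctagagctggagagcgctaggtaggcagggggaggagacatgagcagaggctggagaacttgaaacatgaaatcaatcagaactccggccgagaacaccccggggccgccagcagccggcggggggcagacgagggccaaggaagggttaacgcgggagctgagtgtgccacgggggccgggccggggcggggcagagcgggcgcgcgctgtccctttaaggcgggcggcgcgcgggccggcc
The Wnt11 stretch held 1 match, which begins 51 bases before the start and reads ATCAAAG on the plus strand. A further RefSeq stretch of Wnt11, before a start inside the gene, held none. The Lef1 stretch lies before an internal start and held TACAAAG, 147 bases before it, and the other 3 Lef1 stretches, among them the one before the gene's first start, held none. The Axin2 stretch, which also lies inside the span of its gene, held none. Over windows that also take in 50 bases after the start, 2 of the 12 windows of the 7 members with an entry held such letters (16.7%), against 16.9% of 32851 windows of all genes. G and C made up 70.8% of the Wnt11 stretch, 44.8% of the Lef1 stretch and 69.2% of the Axin2 stretch, against a median of 52.4% over all stretches. A match is a string of letters, not a shown binding site. Wnt5a, Wnt7b and Lgr5 had no entry.

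The oxygen comparison asks which of these genes high oxygen changed. Of the 10 members, 4 fell in hyperoxia averaged over the injections, namely Wnt2, Wnt5a, Wnt11 and Lef1. None rose, and the feedback targets Axin2 and Nkd1 and the effector Ctnnb1 did not pass the test. Called means an adjusted p under 0.05 by edgeR's quasi-likelihood test over all 15761 genes (edgeR QL), in which 22.4% of all genes were called, 11.3% as lower and 11% as higher. Lef1 (edgeR QL adjusted p = 0.0496, called) and the receptor Lgr6 (adjusted p = 0.0553, not called) lay close to the threshold on either side. These calls therefore do not separate ligands and effectors from receptors. The median log2 fold change was -0.34 over the members and -0.00 over all genes tested. Within ATG-injected pups 1 member was called, Wnt5a (11.7% of all genes, 5.41% as higher and 6.25% as lower), and within SAL-injected pups 0 (9.19% of all genes, 4.7% as higher and 4.5% as lower; 3 members and 22.7% of all genes had an unadjusted p under 0.05, and 0 members passed by DESeq2 or limma-voom). The share called within either injection is therefore near that of all genes. In 4 of the 10 members the 3 ATG/HYP libraries all lay below the 3 ATG/RA libraries (Wnt2, Wnt5a, Wnt11 and Lef1), and in 4 the 3 SAL/HYP libraries all lay below the 3 SAL/RA libraries (Wnt2, Wnt5a, Wnt11 and Lgr6), where 27.6% and 29.5% of all genes did not overlap in either direction.

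**Figure D1:**
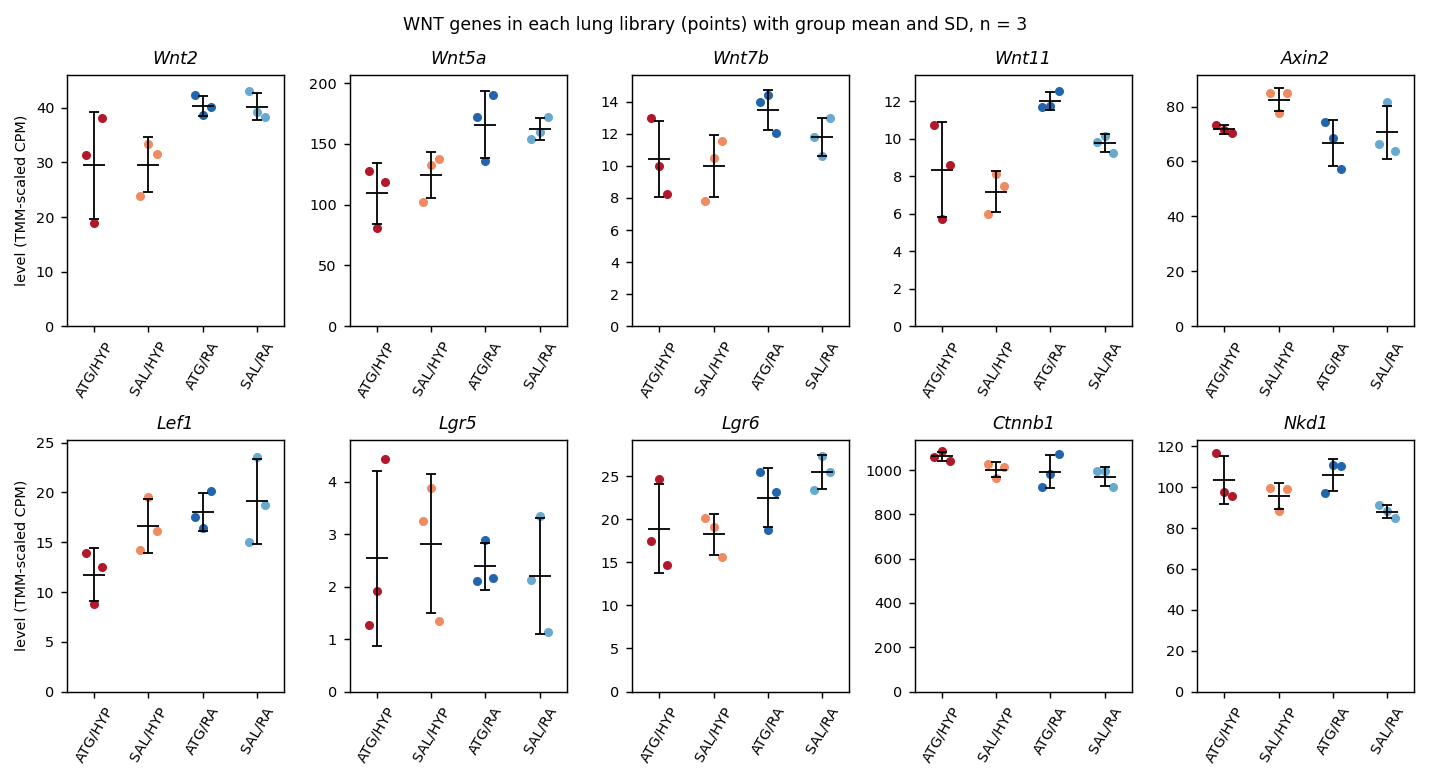
Level of each of the 10 genes in every library (vertical axis, TMM-scaled CPM, from 0) for the 4 groups (horizontal axis); points are libraries, dashes and bars the mean and SD of 3. Wnt2 sits between 18.8 and 38.2 CPM in the HYP lungs and between 38.4 and 43.1 CPM in the RA lungs, and Lgr5 stays under 4.5 CPM with overlapping groups.

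Wnt5a (chromosome 14, 28504543 to 28527448), a ligand of the developing mesenchyme, fell in hyperoxia. Its level was 128, 80.9 and 119 CPM in ATG/HYP and 102, 132 and 138 CPM in SAL/HYP lungs, against 172, 136 and 189.7 CPM in ATG/RA and 154, 159.7 and 172 CPM in SAL/RA lungs. In both injections all 3 HYP libraries were below the 3 RA libraries, and over all 12 the highest HYP library slightly exceeded the lowest RA library, ATG/RA 2. The log2 fold change averaged over the injections was -0.49 (SE 0.11, 95% interval -0.74 to -0.25, edgeR QL adjusted p = 0.00585). It was -0.60 (SE 0.16, adjusted p = 0.0243) in ATG pups and -0.39 (SE 0.16, adjusted p = 0.165) in SAL pups, and the difference between the injections was -0.22 (SE 0.23, adjusted p = 1). The averaged call held in 21 of 21 alternative fits, with values from -0.63 to -0.31. In ATG pups alone it was lost without ATG/HYP 2 (-0.41), ATG/RA 1 (-0.56) or ATG/RA 3 (-0.48).

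Wnt2 (chromosome 6, 17985474 to 18032772), a mesenchymal ligand that acts through beta-catenin, also fell. It stood at 31.4, 18.8 and 38.2 CPM in ATG/HYP and 23.8, 33.3 and 31.5 CPM in SAL/HYP lungs, against 42.3, 38.7 and 40.1 CPM in ATG/RA and 43.1, 39.2 and 38.4 CPM in SAL/RA lungs. None of the 6 HYP libraries overlapped the 6 RA libraries (18.8 to 38.2 against 38.4 to 43.1 CPM), although the gap between the nearest was small; 11% of all genes tested did not overlap in this way. The averaged log2 fold change was -0.45 (SE 0.14, 95% interval -0.74 to -0.15, edgeR QL adjusted p = 0.0298), and the values within the injections were close, at -0.45 in ATG (adjusted p = 0.162) and -0.45 in SAL (adjusted p = 0.189). The averaged call was lost without SAL/HYP 1 (-0.37), ATG/RA 1 (-0.42), ATG/RA 3 (-0.44), SAL/RA 1 (-0.41), SAL/RA 2 (-0.45) or SAL/RA 3 (-0.46).

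Wnt11 (chromosome 7, 98835084 to 98854747), a ligand that signals mostly outside the beta-catenin branch, fell to a similar degree. It was measured at 10.8, 5.72 and 8.62 CPM in ATG/HYP and 5.97, 8.11 and 7.49 CPM in SAL/HYP lungs, against 11.7, 11.8 and 12.6 CPM in ATG/RA and 9.86, 10.2 and 9.23 CPM in SAL/RA lungs. Within each injection the 3 HYP libraries were below the 3 RA libraries. The averaged log2 fold change was -0.48 (SE 0.15, 95% interval -0.80 to -0.16, edgeR QL adjusted p = 0.0306), with -0.52 (adjusted p = 0.131) in ATG and -0.44 (adjusted p = 0.234) in SAL. Its averaged call was lost without ATG/HYP 2 (-0.37), ATG/HYP 3 (-0.48), SAL/HYP 1 (-0.41), SAL/HYP 3 (-0.49), ATG/RA 1 (-0.48), ATG/RA 3 (-0.46) or any one of SAL/RA 1, 2 and 3 (-0.47, -0.46 and -0.49).

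Wnt7b (chromosome 15, 85535437 to 85581821), an epithelial ligand, was not called. It had 12.96, 9.98 and 8.28 CPM in ATG/HYP and 7.82, 10.5 and 11.6 CPM in SAL/HYP lungs, against 14.01, 14.4 and 12.04 CPM in ATG/RA and 11.8, 10.6 and 13.00 CPM in SAL/RA lungs, and the groups overlapped. The averaged log2 fold change was -0.31 (SE 0.14, 95% interval -0.60 to -0.01, edgeR QL adjusted p = 0.128).

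The R-spondin receptors Lgr5 and Lgr6, which strengthen WNT signals and mark stem or progenitor cells in several tissues, were not called. Lgr6 (chromosome 1, 134983300 to 135105374) had 17.5, 24.6 and 14.6 CPM in ATG/HYP and 20.1, 19.04 and 15.6 CPM in SAL/HYP lungs, against 25.5, 18.8 and 23.2 CPM in ATG/RA and 23.4, 27.4 and 25.5 CPM in SAL/RA lungs. In SAL pups the HYP libraries were all below the RA libraries, and in ATG pups they overlapped. The averaged log2 fold change was -0.36 (SE 0.13, 95% interval -0.64 to -0.09, edgeR QL adjusted p = 0.0553). It passed by DESeq2 (-0.36, adjusted p = 0.0322) and by limma-voom (-0.38, adjusted p = 0.0422), and without ATG/HYP 2 (-0.47) or ATG/RA 2 (-0.41), so its side of the threshold depends on the setting. Lgr5 (chromosome 10, 115450314 to 115587780) was counted only 18 to 90 times per library. It had 1.27, 1.91 and 4.43 CPM in ATG/HYP and 3.24, 3.88 and 1.34 CPM in SAL/HYP lungs, against 2.10, 2.89 and 2.16 CPM in ATG/RA and 2.12, 3.35 and 1.13 CPM in SAL/RA lungs, with overlapping groups, and its averaged log2 fold change of 0.23 had a 95% interval of -0.56 to 1.02 (edgeR QL adjusted p = 0.712).

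Lef1 (chromosome 3, 131110297 to 131224357), the nuclear partner of beta-catenin, is also made by developing T cells. Its level was 13.9, 8.75 and 12.5 CPM in ATG/HYP and 14.2, 19.6 and 16.1 CPM in SAL/HYP lungs, against 17.5, 16.4 and 20.2 CPM in ATG/RA and 15.1, 23.6 and 18.8 CPM in SAL/RA lungs. The ATG/HYP libraries were all below the ATG/RA ones, while SAL/HYP and SAL/RA overlapped. Averaged over the injections it fell by 0.41 on the log2 scale (SE 0.14, 95% interval -0.72 to -0.11, edgeR QL adjusted p = 0.0496), with -0.62 (adjusted p = 0.0607) in ATG and -0.20 (adjusted p = 0.594) in SAL, and the difference between the injections was -0.42 (SE 0.28, adjusted p = 1). The averaged call lies at the threshold and held in 7 of 21 alternatives. Leaving out single libraries ended it for ATG/HYP 2 (-0.32), ATG/HYP 3 (-0.43), SAL/HYP 1 (-0.35), SAL/HYP 3 (-0.39), ATG/RA 1 (-0.41), ATG/RA 2 (-0.43), ATG/RA 3 (-0.36), SAL/RA 2 (-0.31) and SAL/RA 3 (-0.41). The 2 libraries with the highest thymocyte marker sums were SAL/HYP 2 and SAL/HYP 3. Without both, SAL/HYP 1 was the only SAL/HYP library left, and the averaged value of Lef1 was -0.53. The part of thymocytes in the SAL/HYP level was not tested.

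Ctnnb1 (chromosome 9, 120933400 to 120960507), which encodes beta-catenin, was not called. It had 1059.6, 1085 and 1042 CPM in ATG/HYP and 1028, 965 and 1015 CPM in SAL/HYP lungs, against 924, 980.5 and 1073 CPM in ATG/RA and 994, 996 and 923 CPM in SAL/RA lungs. The averaged log2 fold change was 0.07 (SE 0.05, 95% interval -0.04 to 0.18, edgeR QL adjusted p = 0.357).

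Axin2 (chromosome 11, 108917828 to 108950783), a scaffold of the beta-catenin destruction complex and a transcriptional target of the pathway, did not pass. It had 73.3, 71.4 and 70.3 CPM in ATG/HYP and 84.95, 77.7 and 84.9 CPM in SAL/HYP lungs, against 74.2, 68.5 and 57.4 CPM in ATG/RA and 66.5, 81.6 and 63.9 CPM in SAL/RA lungs. The averaged log2 fold change was 0.16 (SE 0.08, 95% interval 0.00 to 0.33, edgeR QL adjusted p = 0.144), and it passed without SAL/RA 2 (0.23, adjusted p = 0.0414). Nkd1 (chromosome 8, 88521342 to 88594887), which restrains Dishevelled, had 117, 97.8 and 95.96 CPM in ATG/HYP and 99.5, 88.2 and 99.4 CPM in SAL/HYP lungs, against 97.2, 111 and 110.5 CPM in ATG/RA and 91.2, 88.3 and 84.8 CPM in SAL/RA lungs. Its averaged value was 0.04 (SE 0.07, 95% interval -0.10 to 0.18, edgeR QL adjusted p = 0.698).

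**Figure D2:**
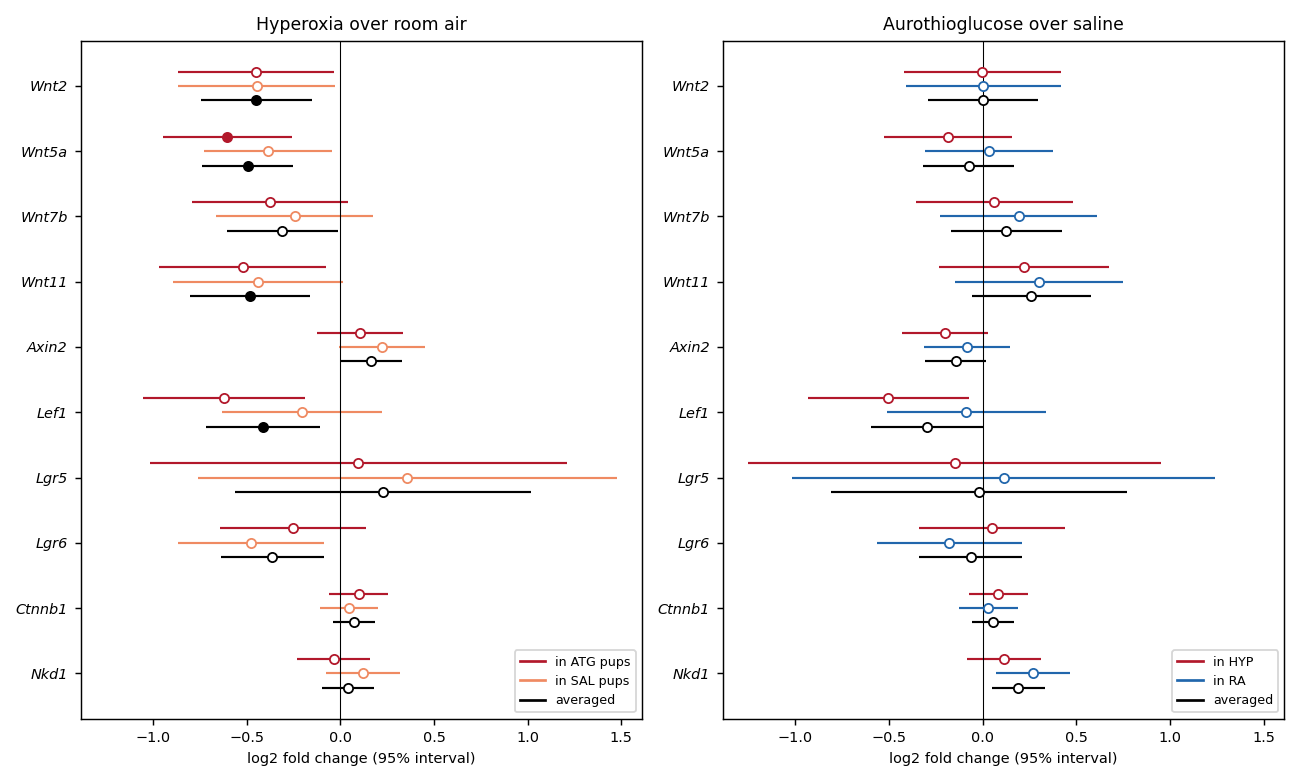
Log2 fold change (horizontal axis) of each of the 10 genes with its 95% interval from edgeR QL; the left panel gives HYP over RA in ATG pups, in SAL pups and averaged, the right panel ATG over SAL in HYP, in RA and averaged, and filled points have an adjusted p under 0.05. Filled points are seen in the left panel for Wnt5a (averaged -0.49; in ATG -0.60), Wnt2 (averaged -0.45), Wnt11 (averaged -0.48) and Lef1 (averaged -0.41), and in the right panel all points are open.

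Like Wnt2, Wnt5a and Wnt11, markers of smooth muscle and myofibroblasts were lower on average in hyperoxia. Their 7 genes summed to 1785 to 2164 CPM in ATG/HYP and 1788 to 1961 CPM in SAL/HYP. The sums were 2471 to 2912 CPM in ATG/RA and 2485 to 2565 CPM in SAL/RA. None of the 7 was at 0 in all libraries, and 5 were called lower in the averaged contrast (11.3% of all genes). The 8 lung fibroblast markers summed to 2275 to 2586 CPM in the HYP libraries and to 2310 to 2662 CPM in the RA libraries, which overlap. In bulk RNA, fewer cells of a type and less RNA per cell cannot be told apart, and the part of cell composition in the falls of Wnt2, Wnt5a and Wnt11 was not tested. ATG/HYP 2, the library with the highest cardiomyocyte marker sum, was the lowest of the 12 libraries for 4 of the 10 members, Wnt2, Wnt5a, Wnt11 and Lef1. Without it and SAL/HYP 2, the members called in the average were Wnt2, Wnt5a, Wnt11 and Lgr6. With SAL/HYP 1 left out as well, only 1 SAL/HYP library remained, so only effect sizes are given. The averaged values were then -0.26 for Wnt2, -0.33 for Wnt11, -0.33 for Lef1 and -0.58 for Lgr6 by edgeR QL.

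**Figure D3:**
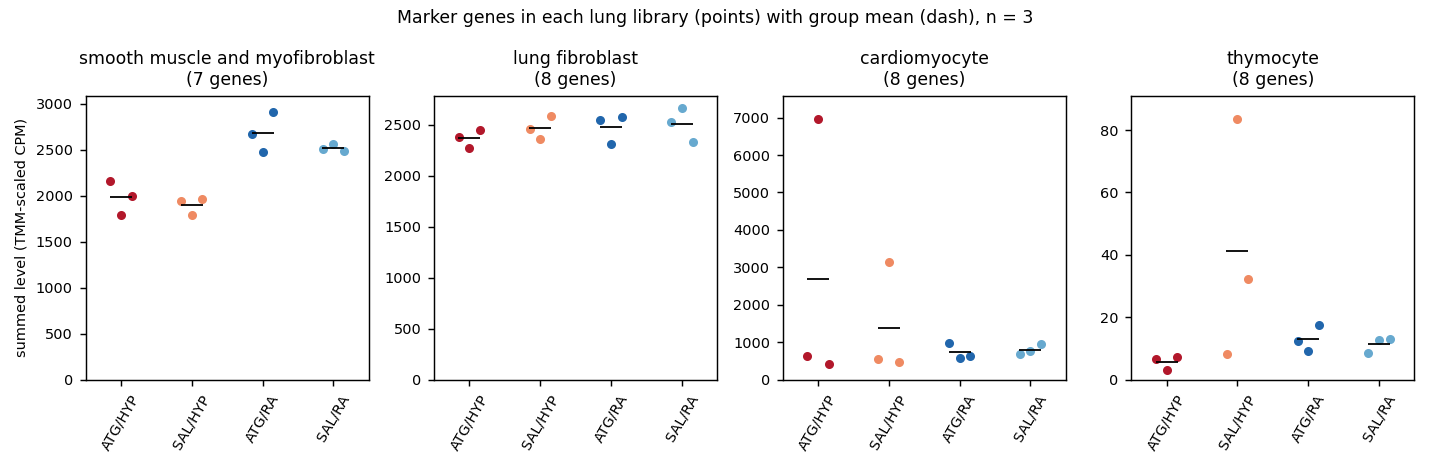
Summed level of 4 marker lists (vertical axes, TMM-scaled CPM, from 0) in every library for the 4 groups (horizontal axis); points are libraries and dashes group means of 3. Smooth muscle and myofibroblast markers sit at 1785 to 2164 CPM in HYP lungs and at 2471 to 2912 CPM in RA lungs, fibroblast markers overlap, and single HYP libraries stand apart for cardiomyocyte (6970 CPM) and thymocyte (83.5 CPM) markers.

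Aurothioglucose was compared with saline to ask what the drug changed. None of the 10 members was called in HYP, in RA or in the average over oxygen by edgeR QL, DESeq2 or limma-voom, and none was called for the interaction. The share of all genes called was 0.00634% in HYP, 0% in RA, 0.0444% in the average (0.0381% as higher) and 0% for the interaction. In HYP the ATG and SAL libraries did not overlap for 3 of the 10 members (Axin2 and Lef1 lower, Ctnnb1 higher; 11.1% of all genes), in RA for 2 (Wnt11 and Nkd1 higher; 12% of all genes), and over all 12 libraries for 0 (0.419% of all genes). An unadjusted p under 0.05 was found for 1 member in HYP (5.69% of all genes), 1 in RA (6.02%), 1 in the average (8.47%) and 0 for the interaction (2.95%). In RA and in the average this was Nkd1, which had 97.2, 111 and 110.5 CPM in ATG/RA, against 91.2, 88.3 and 84.8 CPM in SAL/RA; its log2 fold change was 0.27 in RA (SE 0.09, edgeR QL adjusted p = 0.818) and 0.19 in the average (adjusted p = 0.399). In HYP it was Lef1, with all 3 ATG/HYP libraries below the 3 SAL/HYP libraries and a log2 fold change of -0.50 (SE 0.20, edgeR QL adjusted p = 0.783). The thymocyte markers summed to 8.34 to 83.5 CPM in SAL/HYP and to 3.03 to 7.29 CPM in ATG/HYP. Their part in this value was not tested. The 95% intervals of the averaged drug effect ran from -0.29 to 0.30 for Wnt2, from -0.32 to 0.17 for Wnt5a and from -0.31 to 0.02 for Axin2. The hyperoxia effects in ATG and in SAL pups use different libraries, whereas the drug contrasts share each library with one of them.

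The other genes of the pathway were read from lists of ligands, secretion factors, receptors, inhibitors, the destruction complex, coactivators and targets, of which 81 were in the table and 68 could be tested. In hyperoxia averaged over the injections 7 were called higher, 10 lower and 51 were not called (22.4% of all genes called). In ATG pups 2 were higher and 5 lower (11.7%), in SAL pups 4 were higher and 1 lower (9.19%), and under the drug none was called. Of the 7 calls in ATG pups, 2 (Wls and Bcl9) were kept without each of the 6 ATG libraries in turn, and these were the only ones kept without ATG/RA 1 or ATG/HYP 1. Of the 5 calls in SAL pups, Wls and Tinagl1 were kept without each of the 6 SAL libraries in turn, and these 2 alone without SAL/RA 1 or SAL/RA 3. Without both SAL/HYP 2 and SAL/HYP 3, SAL/HYP 1 was the only SAL/HYP library left. The values in SAL pups were then 0.44 for Wls, 0.63 for Tinagl1 and 0.27 for Lrp5. The shares called in the average and within either injection are near those of all genes. In the average the median log2 fold change was -0.00 over the 68, as over all genes, and 34 of the 68 were above 0.

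Among the R-spondins, the secreted ligands of the Lgr receptors, Rspo2 and Rspo4 fell and 5 of the 7 genes of that list were not called. Rspo2 had 2.15, 3.98 and 5.81 CPM in ATG/HYP and 3.24, 6.23 and 7.06 CPM in SAL/HYP lungs, against 8.94, 8.68 and 10.96 CPM in ATG/RA and 11.6, 11.2 and 14.2 CPM in SAL/RA lungs. Every HYP library lay below every RA library, and the averaged log2 fold change was -1.21 (SE 0.23, edgeR QL adjusted p = 0.00143). Rspo4 fell by 0.72 (SE 0.15, adjusted p = 0.00319).

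Secretion and ligand genes moved the other way in part. Wls, the carrier that brings WNT proteins to the cell surface, had 163, 148 and 155 CPM in ATG/HYP and 152, 152 and 165 CPM in SAL/HYP lungs, against 102, 129 and 116 CPM in ATG/RA and 112, 114 and 111 CPM in SAL/RA lungs. Every HYP library exceeded every RA library, with an averaged log2 fold change of 0.45 (SE 0.06, edgeR QL adjusted p = 9.3e-05). Tinagl1, which is a matricellular protein on the same list and not a secretion enzyme, rose by 0.53 (SE 0.09), so that 2 of the 4 genes of that list were called higher. Wnt7a, an epithelial ligand, was the 1 called gene of the 7 other ligands tested, at 20.1, 16.4 and 12.7 CPM in ATG/HYP and 12.9, 13.2 and 18.7 CPM in SAL/HYP lungs, against 11.8, 11.4 and 7.73 CPM in ATG/RA and 6.64, 10.9 and 9.55 CPM in SAL/RA lungs. Its averaged log2 fold change was 0.70 (SE 0.17, edgeR QL adjusted p = 0.00795). Of 8 alveolar type 1 cell markers, 5 were called higher in the same contrast (11% of all genes). Their median was 0.26, and none was at 0 in any library. They summed to 4992 to 5412 CPM in ATG/HYP and 4655 to 5587 CPM in SAL/HYP, against 4575 to 4939 CPM in ATG/RA and 4033 to 4876 CPM in SAL/RA, and their part in the Wnt7a value was not tested.

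Of 14 tested receptors and co-receptors 3 rose and 2 fell in the average, in which 11% of all genes were called higher and 11.3% lower. The co-receptor Lrp5 rose by 0.27 (SE 0.06), the Frizzled receptors Fzd5 and Fzd2 by 0.41 (SE 0.09) and 0.22 (SE 0.07), and Ror1, a receptor of WNT5A, fell by 0.39 (SE 0.11). Fzd7, named here after its values were seen, fell by 0.19. Of the 8 TCF factors and coactivators 4 fell and none rose. These were Bcl9 (-0.27), Pygo1 (-0.50) and Bcl9l (-0.21), which link beta-catenin to the transcription machinery, and Ctnnbip1 (-0.37), which blocks beta-catenin from binding TCF. Of the 8 other targets, Sp5, a transcription factor gene, fell by 1.29 (SE 0.32, edgeR QL adjusted p = 0.00858) at 12 to 49 counts per library, Tnfrsf19 fell by 0.36 and Ccnd1, the cyclin D1 gene, rose by 0.47 (SE 0.13). None of the 9 tested destruction complex and Dishevelled genes and none of the 11 tested secreted inhibitors was called in the average. Sost, an inhibitor, was called higher in ATG pups (1.96) at 2 to 32 counts per library, and leaving out any one of the 6 ATG libraries ended the call (1.90 to 2.10).

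The averaged calls of Wls, Tinagl1, Fzd5, Rspo2, Rspo4, Sp5 and Bcl9 held in 21 of 21 alternatives. Leaving out 1 library ended the call of Ctnnbip1 (-0.33 without SAL/HYP 3, -0.31 without ATG/RA 1 and -0.34 without SAL/RA 3), Ror1 (-0.32 without ATG/RA 3 and -0.34 without SAL/RA 3), Tnfrsf19 (-0.30 without SAL/HYP 1, -0.30 without ATG/RA 3 and -0.31 without SAL/RA 3) and Fzd2 (0.21 without SAL/RA 3). It ended the call of Bcl9l for 7 of the 12 libraries (-0.21 to -0.17) and of Fzd7 for 10 of the 12 (-0.20 to -0.15). Leaving out SAL/HYP 2 and SAL/HYP 3, the libraries with the highest thymocyte sums, left SAL/HYP 1 as the only SAL/HYP library, so only effect sizes are given. They were 0.33 for Ccnd1, 0.59 for Wnt7a, 0.23 for Lrp5, -0.43 for Ror1, -0.38 for Ctnnbip1, 0.20 for Fzd2, -0.24 for Fzd7 and -0.25 for Bcl9l. Leaving out SAL/HYP 1, SAL/HYP 2 and ATG/HYP 2 left SAL/HYP 3 as the only SAL/HYP library. The values were then -0.36 for Pygo1, -0.20 for Tnfrsf19, -0.26 for Ror1, -0.34 for Ctnnbip1, 0.20 for Fzd2, -0.21 for Fzd7 and -0.17 for Bcl9l. Without SAL/HYP 2 and ATG/HYP 2 alone, Ror1 (-0.30), Fzd2 (0.19) and Bcl9l (-0.21) lost their calls.

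**Figure D4:**
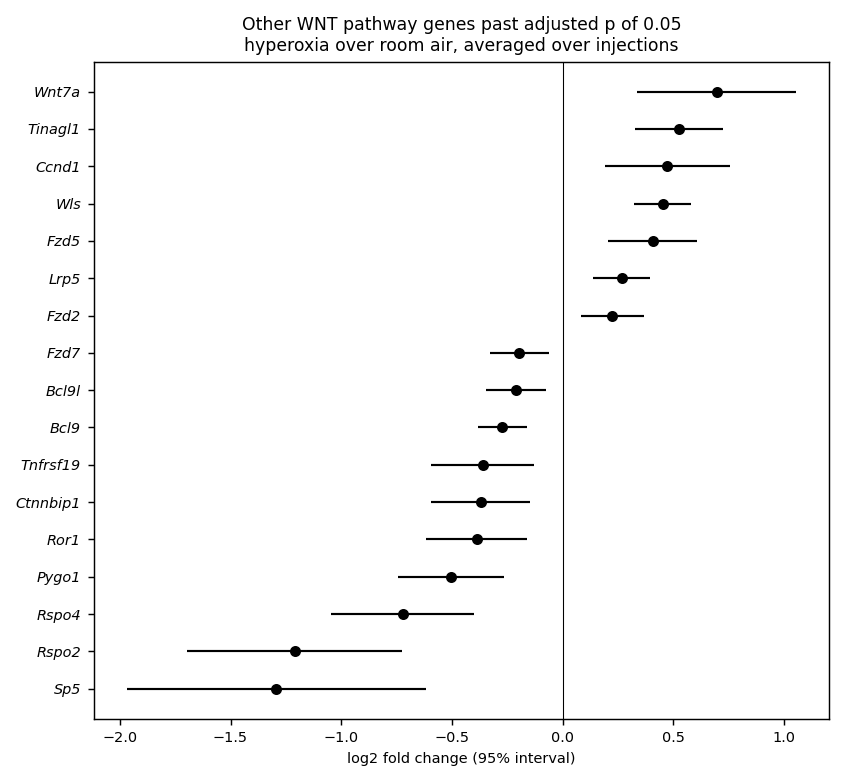
Averaged log2 fold change, HYP over RA (horizontal axis), with its 95% interval from edgeR QL, for the 17 genes of the pathway lists outside the 10 that had an adjusted p under 0.05, in order of the value. They run from 0.70 (Wnt7a) to -1.29 (Sp5), with 7 above 0 and 10 below.

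For each of the 4 called members, the genes whose log2 CPM, standardised over the 12 libraries, was nearest to it were sought among 14435 genes, by mean absolute difference (median over genes 1.08 to 1.10). The nearest to Wnt5a were Ddr2 (0.141), a collagen receptor, and Gucy1a3 (0.160), a subunit of soluble guanylate cyclase. Those nearest to Wnt2 were Nrep (0.194) and Nrcam (0.227), those to Wnt11 Lmcd1 (0.253) and Dak (0.267), and those to Lef1 Wdfy4 (0.247) and Fbxo48 (0.300). The 12 libraries share their oxygen condition and injection within groups, and the likeness is a description.

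Because the treatment of strand in counting is not given, reads of genes on the opposite strand may be included where exons overlap. This applies to Ctnnb1, of whose exon bases 14.6% are shared with Ulk4, and to Lef1 (13.7% with Gm43352), Wnt11 (8.8% with Gm8398), Wnt7b (6.61% with AU022754), Wnt5a (4.58% with Gm2670) and Axin2 (3.8% with Gm11670). Of the other called pathway genes it applies most to Ctnnbip1 (25.8% with Gm13066), Ccnd1 (23.4% with LTO1) and Fzd5 (17.8% with Gm38058).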

How the data were processed

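The labels' protocols describe amplified cDNA (NuGEN Ovation) made into Nextera XT libraries and read in pairs on a HiSeq 2500. The deposited table holds the authors' raw counts for each gene symbol in 12 libraries, neither scaled nor pooled. The submitters' processing notes name Bowtie2, Cufflinks, DESeq and mm10, with no versions. Which annotation was used, and how strand and multiply matching reads were treated, is not given in the sources used here.

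filterByExpr (minimum count 10, minimum total 15) kept 15761 genes holding 99.96% of the counts. After TMM scaling, edgeR's quasi-likelihood model (edgeR 4.0.16, R 4.3.3) gave each of the 4 groups its own mean, leaving 8 residual degrees of freedom. Tests were two-sided, with Benjamini-Hochberg adjustment across the kept genes and a threshold of 0.05. DESeq2 1.42.0 and voom from limma 3.58.1 served as alternatives, and the edgeR code was tested on simulated data. No replicate pair matched within sampling noise, and each library was counted once. Amplification can add spread of its own, so this check does not show whether the libraries came from separate animals. Amplified reads are not independent molecules.

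The members and lists were chosen with earlier results of these data known. Named genes are the 10 members, list genes with an adjusted p under 0.05 (at most 4 per list and contrast) and the 2 nearest genes of each called member. Positions and promoters come from RefSeq GRCm38.p6, exon lengths from GENCODE M21 (GRCm38, as mm10).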

Additional observations from a re-analysis of the deposited data

Results flagged for a closer look

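Bcl9, a coactivator of beta-catenin, had log2 fold changes of opposite sign for ATG against SAL in the 2 oxygen conditions, without overlap of the libraries, and was called in neither. In HYP the 3 ATG libraries (81.6, 84.5 and 77.4 CPM) were below the 3 SAL libraries (87.8, 87.0 and 86.9 CPM), with a log2 fold change of -0.10 (SE 0.07, edgeR QL adjusted p = 0.938). In RA the 3 ATG libraries (113, 101 and 113 CPM) were above the 3 SAL libraries (92.4, 94.3 and 97.6 CPM), with a log2 fold change of 0.20 (SE 0.07, edgeR QL adjusted p = 0.818). The interaction in edgeR QL was -0.30 (SE 0.10, unadjusted p = 0.0103) and did not pass adjustment over all genes (adjusted p = 1). Bcl9 was flagged because its libraries separated in opposite directions, so this p rests on the values that picked it. Of all genes, 11.1% did not overlap in HYP and 12% in RA. An unadjusted edgeR QL interaction p under 0.05 was found for 2.95%.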

How the results depend on the processing

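Under the alternatives 1270 values of 70 member results were recomputed, and 1222 kept their side of the threshold. A call was lost by 37 and gained by 11, while 0 called values and 108 uncalled values changed sign. Only 4 results in the average and 1 in ATG pups were called as reported, so most values had no call to lose. Of 21 alternatives, the averaged call held in 21 for Wnt5a, 14 for Wnt2, 11 for Wnt11 and 7 for Lef1. In ATG pups the call of Wnt5a held in 10 of 16. The count of members called in HYP against RA averaged (4) was 5 by DESeq2 and by limma-voom, which added Lgr6. With RLE size factors in place of TMM it was 3, without Lef1. Without each library in turn it was 1 to 4. In ATG (1) it was 2 by DESeq2, 0 with sex as a covariate, 0 in the 6 ATG samples alone and 0 without SAL/HYP 2 and ATG/HYP 2. Without each library in turn the count in ATG was 0 to 2. In SAL (0) it was 1 without SAL/HYP 2 and ATG/HYP 2 (Wnt2), 1 in the 6 SAL samples alone (Wnt5a), and 0 to 0 without each library. The cause was not tested. In every drug contrast and the interaction the count was 0 throughout, from 0 to 0 without each library.

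The replicate block, with the labels' replicate number as a term, gave 3 members in the average (Lef1 lost its call at -0.41, adjusted p = 0.0702), 1 in ATG and 0 in SAL and in each drug contrast. Whether the numbers pair the samples cannot be told, since only same-numbered pairs were compared. Of these 18 pairs, 2 had a correlation of deviations over 0.1, and the values ran from -0.156 to 0.280. The 2 were SAL/HYP 2 with ATG/HYP 2 (0.280) and SAL/HYP 3 with ATG/HYP 3 (0.129).

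Over all genes, the 1449 called in SAL became 740 to 1168 without each library, and the 1838 in ATG became 1150 to 2045 without each. Drug counts are given over the alternatives that kept more than 1 library in every group. They ran from 0 to 8 in HYP (1 as reported), from 0 to 15 in RA (0) and from 0 to 86 in the average (7), with 8, 15 and 86 by DESeq2. The interaction count stayed at 0 in them (0 as reported). Per library, Lgr5 was counted 18 to 90 times, Sp5 12 to 49 times and Sost 2 to 32 times.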
